A study of Mus musculus with 18 samples.

Results

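The data cover 10 genes for RNA-binding proteins that set neuron-type splicing and RNA stability, namely Ptbp1, Ptbp2, Rbfox1, Rbfox2, Rbfox3, Nova1, Nova2, Srrm4, Elavl2 and Elavl4. They were taken from the array by gene symbol: every probe set annotated to 1 gene with one of these symbols was kept, which gave 31 probe sets among 34945 single-gene probe sets. For each gene the probe set with the highest mean over all arrays was the main one. All 10 main probe sets lay above a filter that left out the lowest 30% of probe sets, so all 10 genes were among the 14288 genes tested. Of the 31 probe sets, 28 lay above that filter.

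The RNA came from mouse interneurons of the cortex that derive from the caudal ganglionic eminence, an embryonic source of inhibitory neurons, and that were sorted by GFP fluorescence. Control groups were GAD65-GFP animals, which carry GFP driven from a GABA-synthesis gene, and mutant groups were Htr3a-KO;GAD65-GFP animals, which carry the same reporter and lack a working Htr3a, the gene of an ion-channel serotonin receptor. Cells were taken at E14.5 during tangential migration, at E18.5 during entry into the cortical plate and at P2 during settling. Each of these 6 groups had 3 arrays, each from a different litter, and each array pooled at least 4 brains, so single animals were not measured and a value is an average over sorted cells.

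Neurons use a set of splicing programs of their own. Ptbp1 is the repressor of neuronal exons in progenitors and non-neuronal cells, and it also lowers its paralog Ptbp2, the related repressor that neurons use during early differentiation. Srrm4 promotes the inclusion of neuronal microexons, the Rbfox and Nova proteins bind short RNA motifs and switch exons on or off by position, and the Elavl proteins bind U-rich and AU-rich sequence and stabilise or alternatively process neuronal messages. The arrays measured the amount of transcript and not the inclusion of exons, and in sorted bulk RNA fewer cells of a type and less RNA per cell cannot be told apart.

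Srrm4 and Rbfox1 had the largest age differences among the 10 genes, and the sequence at their annotated starts is shown for that reason. The windows run from 250 bases before to 50 bases after a RefSeq start on GRCm38.p6, 5′ to 3′ on the gene's strand, with each CG dinucleotide in capitals.
Srrm4, chr5:116591768-116592067, minus strand: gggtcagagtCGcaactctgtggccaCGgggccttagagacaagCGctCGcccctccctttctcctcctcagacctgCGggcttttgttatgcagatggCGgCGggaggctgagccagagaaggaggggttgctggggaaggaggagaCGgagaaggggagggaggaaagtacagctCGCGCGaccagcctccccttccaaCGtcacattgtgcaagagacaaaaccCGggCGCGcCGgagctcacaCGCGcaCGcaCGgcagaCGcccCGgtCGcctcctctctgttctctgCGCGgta
Rbfox1 first window, chr16:5884543-5884842, plus strand: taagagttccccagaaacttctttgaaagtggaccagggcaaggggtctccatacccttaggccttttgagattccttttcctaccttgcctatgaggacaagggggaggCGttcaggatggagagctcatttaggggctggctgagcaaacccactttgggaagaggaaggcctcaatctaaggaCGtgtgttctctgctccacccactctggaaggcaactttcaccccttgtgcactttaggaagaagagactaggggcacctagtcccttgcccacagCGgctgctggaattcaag
Rbfox1 second window, chr16:7069585-7069884, plus strand: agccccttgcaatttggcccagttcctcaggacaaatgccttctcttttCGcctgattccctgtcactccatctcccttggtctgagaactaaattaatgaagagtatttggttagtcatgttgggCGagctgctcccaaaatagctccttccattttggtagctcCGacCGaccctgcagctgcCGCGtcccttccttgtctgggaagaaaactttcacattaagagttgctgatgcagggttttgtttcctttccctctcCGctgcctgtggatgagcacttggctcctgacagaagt
The Srrm4 window held 25 CG dinucleotides, more than 81.6% of the 32851 mouse windows of this length hold. The Rbfox1 windows held 3 and 7, and the median over all windows was 7. RefSeq windows were found for 9 of the 10 genes, 18 windows in all. Of these, the Ptbp2 window was the richest, with 36 CG dinucleotides.

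Both strands of each window were searched for short motifs. The letters GGGCGG, the core bound by Sp1, were in 8 of the 18 windows and in 35.7% of all windows, and CCAAT was in 10 and in 37.4%. TATAAA was in 0 of the 18 and in 13.6% of all windows. The pieces CAGCACC and GGACAG, which belong to the longer element bound by the neuronal repressor REST, were in 0 and 2 of the 18, against 7.14% and 22.2% of all windows. None of these 5 letter strings was in the Srrm4 window or in either Rbfox1 window. Several of the 18 windows belong to alternative starts of Elavl2 and Elavl4 and overlap each other, so they are not separate sequences. A match is a run of letters and was not tested as a binding site.

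Values are the deposited log2 signals, and differences are the later age minus the earlier or Htr3a-KO minus control. Array medians lay between 6.35 and 6.46. Correlations between arrays of 1 group were 0.984 to 0.996. The mean of the Htr3a probe set was lower in the mutants: 8.04 against 7.30 at the first age, 10.34 against 6.83 at the second and 8.79 against 6.84 at the last. The array at E14.5 from control litter 3 stood apart. Its summed signal of 8 striatal markers was 11.80, against 13.59 and 13.94 in the other E14.5 controls, and that of 7 GABAergic markers was 12.31 against 14.00 and 13.76. The summed signal of 9 excitatory neuron markers was present in all groups and lay between 10.76 and 14.37. At P2 it was lowest on the Htr3a-KO array of litter 1. Nova1 at E14.5, and Ptbp2, Rbfox1, Elavl2 and Elavl4 at P2 in Htr3a-KO, are given with and without them. For Srrm4 in Htr3a-KO the range over all alternatives is given, which include leaving out each array. Of the cell-type marker genes named by a probe set, only Pecam1, of blood vessels, lay below the filter on every array.

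The largest difference among the 10 genes was that of Srrm4 between E18.5 and P2, in the same direction in both genotypes. Signal was 8.41, 8.76 and 8.10 on the E18.5 control arrays and 7.91, 7.19 and 7.02 on the P2 control arrays. The Htr3a-KO arrays read 8.77, 8.25 and 8.18 before birth at E18.5, then 6.19, 6.74 and 7.02 after it. Every P2 array lay below every E18.5 array in both genotypes. Srrm4 fell by 1.05 (SE 0.27, 3 arrays a group) in controls, a 2.07-fold difference with an adjusted p of 0.0119 in limma's moderated test. In Htr3a-KO it fell by 1.75 (SE 0.27), a 3.36-fold difference with an adjusted p of 3.18e-04 in limma.

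Before that step the Srrm4 groups overlapped. The E14.5 arrays read 8.12, 8.30 and 8.57 in controls and 8.05, 8.59 and 8.61 in Htr3a-KO, overlapping the E18.5 arrays of their genotype. In order of mean level, E18.5 control (8.42 ± 0.33, SD, n = 3), E14.5 Htr3a-KO (8.42 ± 0.32), E18.5 Htr3a-KO (8.40 ± 0.32) and E14.5 control (8.33 ± 0.23) came first and did not differ beyond their spread. P2 control (7.37 ± 0.47) and P2 Htr3a-KO (6.65 ± 0.42) followed. Those last groups touched at 7.02, and their difference of -0.72 did not pass, with an adjusted p of 0.604 in limma. Over 14 alternatives that difference ran from -0.91 to -0.28 and passed in 0. The interaction of genotype with age did not pass for Srrm4 either (F test, adjusted p = 0.71), so the larger step in Htr3a-KO was not shown to differ from that in controls.

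The Srrm4 step in controls rested on single arrays more than that in Htr3a-KO. Without the E18.5 control array of litter 2 it was -0.88 with an adjusted p of 0.0576, and without the P2 control array of litter 3 it was -0.87 with an adjusted p of 0.056. Over 14 alternatives its adjusted p ranged from 0.00254 to 0.0576, whereas in Htr3a-KO it passed in all 14, with adjusted p from 2.79e-05 to 0.00328 in limma. The size of the Htr3a-KO difference ran from -1.935 to -0.858 over its alternatives, and that in controls from -1.318 to -0.646. A second Srrm4 probe set, 1425774_at, also fell between E18.5 and P2 in a fit of every probe set, with differences of -0.86 in controls (adjusted p = 0.00555) and -0.58 in Htr3a-KO (adjusted p = 0.032). The remaining one, 1438523_x_at, differed by -0.03 in controls and -0.24 in Htr3a-KO and did not pass. The x in its name is the manufacturer's mark for probes that can match other transcripts.

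Markers of excitatory neurons were lower at P2 as well. Of 9 such genes tested, 6 fell in controls and 7 in Htr3a-KO between E18.5 and P2, and 0 rose. Their summed signal was 13.18 to 13.48 at E18.5 and 12.03 to 12.49 at P2 in controls, and 13.22 to 13.68 and 10.76 to 12.15 in Htr3a-KO. On the P2 Htr3a-KO arrays of litters 1, 2 and 3 it was 10.76, 12.15 and 11.86, and the lowest Srrm4 signal, 6.19, was on the first of these. On the P2 control arrays it was 12.13, 12.03 and 12.49. There the lowest Srrm4 signal, 7.02, was on the array with the highest sum. In controls the mean sum was 14.03 at E14.5 and 13.36 at E18.5, where mean Srrm4 was 8.33 and 8.42. Astrocyte markers moved the other way, with 7 of 8 rising in each genotype and a summed signal of 14.15 to 15.08 over the P2 arrays against 10.45 to 12.17 over the E18.5 arrays. Of 7 oligodendrocyte lineage genes 6 rose in controls and 4 in Htr3a-KO, of 11 progenitor genes 5 and 2 rose, and of 7 endothelial genes 3 and 1 rose, with 0 lower in any of these lists. The part of these cell types in the Srrm4 step, or in the other changes of that step, was not tested. The genes whose pattern over the 18 arrays was most like that of Srrm4 were Aff3, Tmem74 and Slc17a6, with root mean square differences of 0.23, 0.244 and 0.258 log2 units after centring, against an SD of 0.765 for Srrm4 itself. Slc17a6 encodes the glutamate transporter VGLUT2 and was one of the excitatory markers. It fell over the same step, with differences of -1.14 in controls and -1.89 in Htr3a-KO (adjusted p = 0.00838 and 1.99e-04 in limma).

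**Figure D1:**
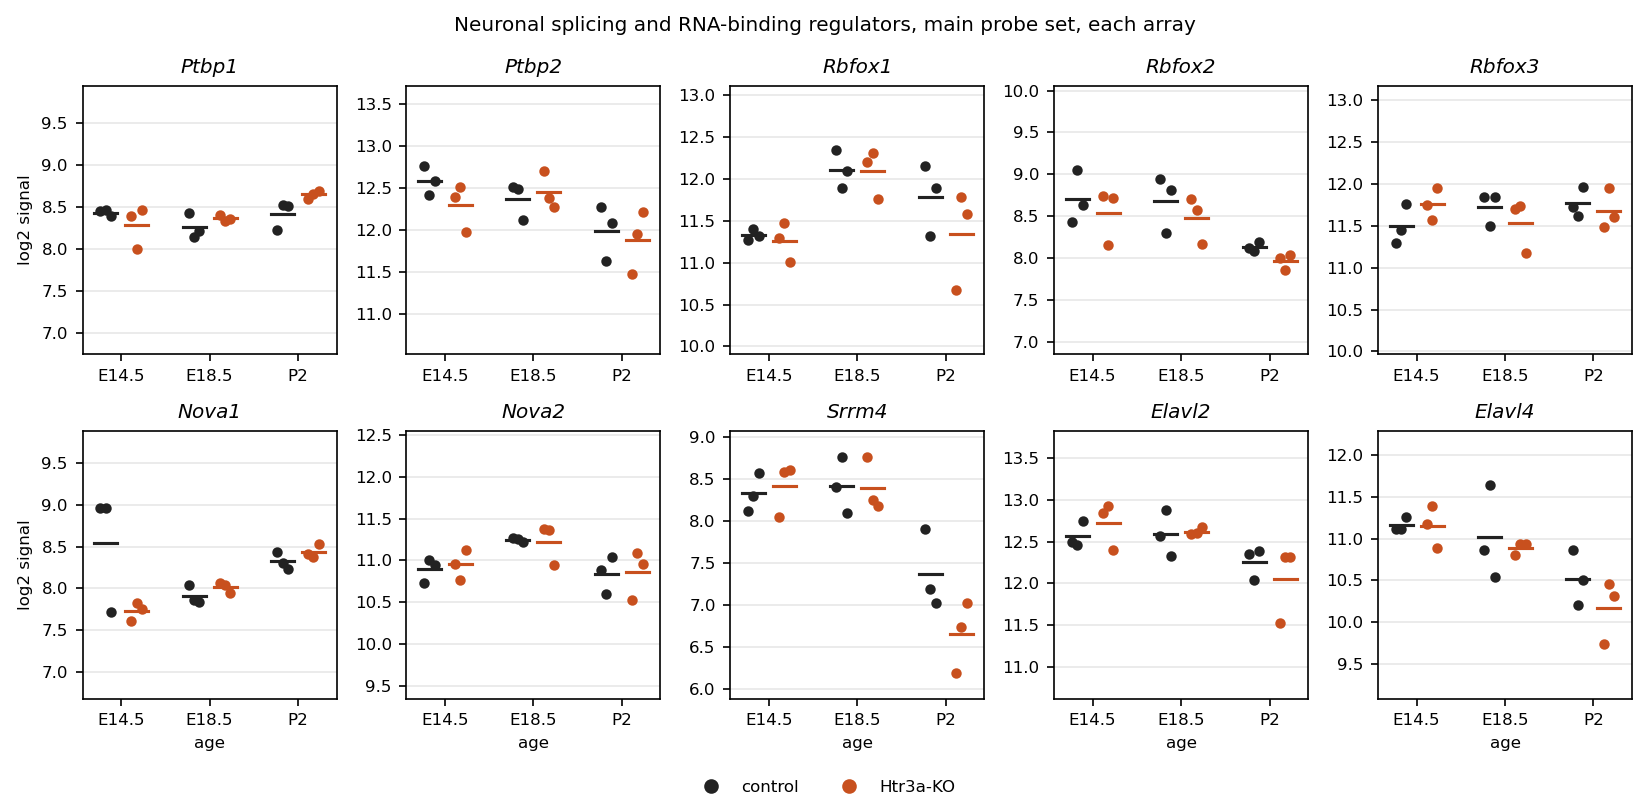
Log2 signal of the main probe set of each gene on every array (points) with the group mean (bar), by age and genotype; all panels span the same number of log2 units. Srrm4 was at 8.05 to 8.77 on every embryonic array and at 6.19 to 7.91 at P2, Rbfox1 peaked at E18.5, and Nova1 had E14.5 control arrays at 8.96, 8.96 and 7.72.

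The mean signal of Rbfox1 was highest at E18.5 in both genotypes. Rbfox1 encodes a splicing factor that reads UGCAUG motifs beside neuronal and muscle exons. Signal was 11.27, 11.40 and 11.32 on the E14.5 control arrays, 12.35, 11.89 and 12.09 at E18.5, and 12.16, 11.32 and 11.89 after birth. In Htr3a-KO it was 11.30, 11.47 and 11.01, then 12.20, 12.31 and 11.76, then 10.67, 11.79 and 11.58. The E14.5 and E18.5 groups did not overlap in either genotype, whereas P2 arrays overlapped E18.5 arrays in both.

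From E14.5 to E18.5 Rbfox1 rose by 0.83 (SE 0.26) in Htr3a-KO, a 1.78-fold difference with an adjusted p of 0.0427 in limma. The control difference of 0.78 (SE 0.26) was of like size and had an adjusted p of 0.0671, on the other side of the threshold. The second brightest Rbfox1 probe set, 1418314_a_at, passed in both genotypes when every probe set was fitted, at 0.71 in controls (adjusted p = 0.0453) and 0.69 in Htr3a-KO (adjusted p = 0.0391). All 4 Rbfox1 probe sets differed upward over this step and downward over the next, in both genotypes. The Htr3a-KO rise was lost in 7 of 14 alternatives, among them leaving out any one of the E14.5 Htr3a-KO arrays or either of the E18.5 Htr3a-KO arrays of litters 1 and 2, with adjusted p from 0.00192 to 0.152. The control difference passed in 2 of 14. Cell-type markers also changed over this step. Of 7 oligodendrocyte lineage genes 6 rose in each genotype, and their summed signal was between 10.02 and 10.34 on all E14.5 arrays and between 12.36 and 13.79 on all E18.5 arrays. Of 7 striatal markers tested 4 fell in controls and 2 in Htr3a-KO, and of 9 excitatory markers 3 and 4 fell. All 7 GABAergic genes differed downward in both genotypes, and 2 and 1 of them passed. Of 10 genes of interneurons from the caudal ganglionic eminence, 4 rose and 1 fell in controls, and 2 rose and 0 fell in Htr3a-KO. The part of these cell types in the Rbfox1 values was not tested.

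From E18.5 to P2 Rbfox1 fell by 0.74 (SE 0.26) in Htr3a-KO with an adjusted p of 0.0434 in limma, and the control difference of -0.32 did not pass (adjusted p = 0.434). The fall rested on the P2 Htr3a-KO array of litter 1, at 10.67. Without it the difference was -0.41 with an adjusted p of 0.222, the highest over 14 alternatives, of which 7 lost the call and the lowest gave 0.00543. In order of mean level the groups ran from E18.5 control (12.11 ± 0.23, SD, n = 3) and E18.5 Htr3a-KO (12.09 ± 0.29), which did not differ beyond their spread, through P2 control (11.79 ± 0.43) and P2 Htr3a-KO (11.35 ± 0.60) to E14.5 control (11.33 ± 0.07) and E14.5 Htr3a-KO (11.26 ± 0.23). The last 3 did not differ beyond their spread. The genes most like Rbfox1 over the 18 arrays were Wdr17, Rnf130 and Khdrbs3, at 0.172, 0.179 and 0.189 log2 units, against an SD of 0.472 for Rbfox1. Khdrbs3, which encodes the neuronal splicing factor SLM2, rose from E14.5 to E18.5 by 0.76 in controls and by 0.69 in Htr3a-KO (adjusted p = 0.0191 and 0.0251 in limma).

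**Figure D2:**
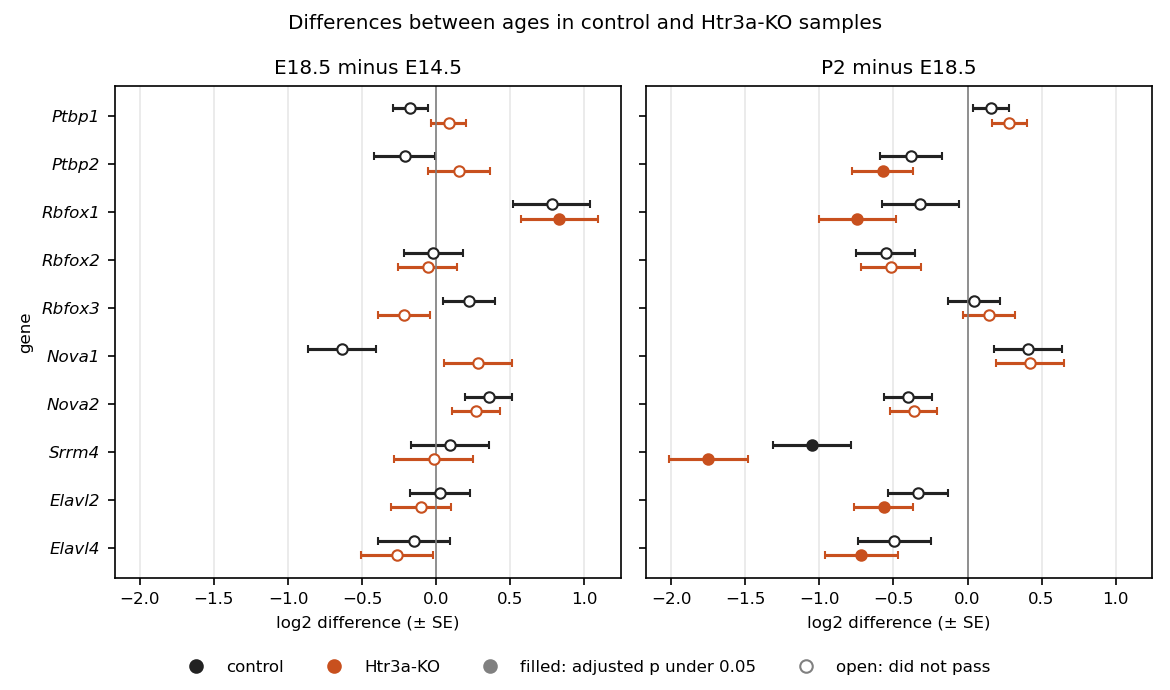
Log2 difference between ages for each of the 10 genes, with its SE, in controls and in Htr3a-KO; filled points had an adjusted p under 0.05 in limma. Srrm4 is filled in both genotypes for P2 minus E18.5, at -1.05 and -1.75, and Rbfox1 in Htr3a-KO for E18.5 minus E14.5, at 0.83.

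Gene by gene, 0 of 10 passed from E14.5 to E18.5 in controls, where 11% of all genes did, and 3 had an unadjusted p under 0.05 in limma. Array groups were apart for 2 of 10, against 30.9% of all genes. In Htr3a-KO over the same step 1 of 10 passed, against 15.1% of all genes, and 2 had groups apart, against 37.5%. From E18.5 to P2 in controls 1 of 10 passed, against 19.7%, and 4 were apart, against 32.8%. These counts were at or below the background shares, apart from the 4 genes with groups apart in the last comparison, which were near it.

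In Htr3a-KO from E18.5 to P2, 5 of 10 passed, all lower: Ptbp2, Rbfox1, Srrm4, Elavl2 and Elavl4. Of all genes 28.5% passed and 15% passed as lower, and with the arrays quantile normalised the share of higher genes among all that passed went from 47.4% to 58%. Groups were apart for 7 of the 10, against 47.5% of all genes. The median difference of the 10 was -0.54 in Htr3a-KO and -0.36 in controls, where the medians of all genes were 0 and -0.04. The count of 5 in Htr3a-KO was not firm. It was 2 after quantile normalisation, 3 with no filter on low values, and 1 without the P2 Htr3a-KO array of litter 1 or without either of the E18.5 Htr3a-KO arrays of litters 1 and 2. The age comparisons share the E18.5 arrays, so a high or low E18.5 array enters both steps of its genotype.

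Of the PTB pair, Ptbp2 passed in 1 comparison and Ptbp1 in 0. Ptbp2 signal was 12.70, 12.38 and 12.28 on the E18.5 Htr3a-KO arrays and 11.48, 11.95 and 12.21 at P2, with the groups apart by 0.07. It fell by 0.57 (SE 0.21) with an adjusted p of 0.04995 in limma, and 11 of 14 alternatives lost the call, with adjusted p from 0.0247 to 0.225. The highest of these came without the P2 array of litter 1, where the difference was -0.37. In controls the same step was -0.38 (adjusted p = 0.222). The other Ptbp2 probe set, 1423471_at, fell by 0.48 in Htr3a-KO (adjusted p = 0.0334 in the fit of every probe set).

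Ptbp1 gave values that depended on the probe set. The main one, 1458284_at, was 8.41, 8.33 and 8.36 on the E18.5 Htr3a-KO arrays and 8.60, 8.66 and 8.69 at P2, with no overlap. That difference of 0.28 (SE 0.12) had an adjusted p of 0.0892 in limma, and over 14 alternatives it ran from -0.10 to 0.41. The other probe sets, 1424874_a_at and 1450443_at, differed by -0.39 and -0.18 over the same step and did not pass (adjusted p = 0.169 and 0.292 in the fit of every probe set), so the direction for Ptbp1 was not settled by these probe sets. At P2 the main probe set was higher on all 3 Htr3a-KO arrays than on the controls, at 8.22, 8.52 and 8.51, with a difference of 0.23 and an adjusted p of 0.68.

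Among the Rbfox paralogs, Rbfox2 was low at P2. It is the family member expressed most widely outside neurons. Signal was 8.95, 8.30 and 8.81 on the E18.5 control arrays and 8.12, 8.09 and 8.19 at P2, and 8.70, 8.58 and 8.17 against 8.0, 7.86 and 8.04 in Htr3a-KO. The ages did not overlap in either genotype. The differences of -0.55 and -0.52 (SE 0.20 each) had adjusted p of 0.0628 and 0.064 in limma, just outside the threshold. They passed in 3 and 4 of 14 alternatives, among them without the E18.5 control array of litter 2 (-0.75, adjusted p = 0.0243) and without the E18.5 Htr3a-KO array of litter 3 (-0.67, adjusted p = 0.0377). The probe set 1434938_at fell by 0.59 in controls (adjusted p = 0.0151). Rbfox3, which encodes the neuronal antigen NeuN, varied little on its main probe set. Its 18 arrays lay between 11.18 and 11.96, no age step exceeded 0.22 in size, and it passed in no comparison. From E14.5 to E18.5 the probe set 1456149_at differed by 0.41 in controls and 1427286_at by -0.29 in Htr3a-KO. Neither passed (adjusted p = 0.163 and 0.412 in the limma fit of every probe set).

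Nova1 and Nova2, onconeural proteins that bind YCAY repeats, had different profiles. Nova2 was 10.73, 11 and 10.95 on the E14.5 control arrays, 11.27, 11.25 and 11.22 at E18.5, and 10.89, 10.60 and 11.04 after birth. E18.5 lay above both other ages in controls with no overlap, but neither the difference of 0.35 (adjusted p = 0.179) nor that of -0.40 (adjusted p = 0.0901) passed in limma. In Htr3a-KO the corresponding differences were 0.27 and -0.36 and the groups overlapped.

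Nova1 differed between litters at E14.5. Its control arrays read 8.96, 8.96 and 7.72, and the Htr3a-KO arrays 7.61, 7.83 and 7.76. At E18.5 all 6 arrays lay between 7.84 and 8.07 and at P2 between 8.23 and 8.53. So 2 of the 3 E14.5 control arrays were the highest of all 18, and the array of litter 3 lay among the Htr3a-KO arrays.

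The E14.5 difference of Nova1 between Htr3a-KO and control was -0.81 (SE 0.23) and did not pass, with an adjusted p of 0.659 in limma. Without the control array of litter 3 it was -1.23 with an adjusted p of 1.20e-04, and with array weights -1.06 with an adjusted p of 0.0315, while over 14 alternatives the adjusted p ran up to 1. The control step from E14.5 to E18.5 behaved alike, at -0.63 (adjusted p = 0.0902) with all arrays and -1.05 (adjusted p = 5.01e-05) without that one. Summed striatal markers on the same E14.5 arrays were 13.59, 13.94 and 11.80 in controls and 11.12, 11.93 and 12.57 in Htr3a-KO. Isl1, a transcription factor of striatal and cholinergic neurons, read 11.97, 12.25 and 8.95 in controls and 6.21, 9.34 and 10.38 in Htr3a-KO. The control arrays with high Nova1 were those with the highest striatal sums, and the part of striatal cells in the Nova1 values was not tested. From E18.5 to P2 Nova1 differed by 0.41 in controls and 0.42 in Htr3a-KO, with no overlap of ages in either, and did not pass (adjusted p = 0.234 and 0.179).

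**Figure D3:**
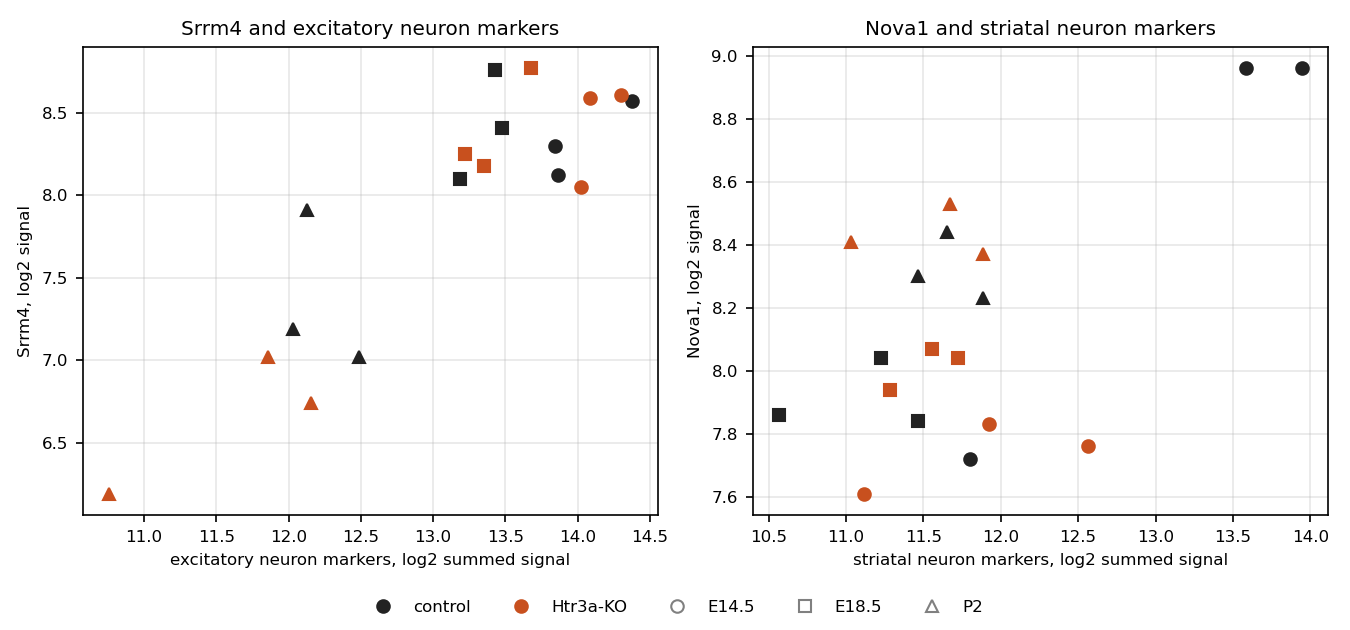
Each point is 1 array. Left, Srrm4 signal against the log2 summed signal of 9 excitatory neuron markers; right, Nova1 against 8 striatal neuron markers; shape gives the age and colour the genotype. The P2 Htr3a-KO array with the lowest Srrm4, 6.19, had the lowest excitatory sum, 10.76, and the E14.5 control arrays at 8.96 for Nova1 had the highest striatal sums, 13.59 and 13.94. Among the P2 control arrays the lowest Srrm4, 7.02, was on the array with the highest excitatory sum, 12.49.

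Elavl2 and Elavl4 encode the neuronal proteins HuB and HuD. Elavl2 signal was 12.59, 12.60 and 12.67 on the E18.5 Htr3a-KO arrays and 11.53, 12.31 and 12.32 at P2. The ages were apart, and the P2 array of litter 1 was well below the rest. Elavl2 fell by 0.57 (SE 0.20) with an adjusted p of 0.0467 in limma, and without that array the difference was -0.31 with an adjusted p of 0.236, the highest of 14 alternatives, of which 9 lost the call and the lowest gave 0.0136. In controls the difference was -0.33 (adjusted p = 0.276). In the fit of every probe set, 1421883_at fell in Htr3a-KO by 0.83 (adjusted p = 0.00234) and 1454454_at fell by 0.82 (adjusted p = 0.0208), and 1421881_a_at fell in controls by 0.96 (adjusted p = 0.0307). The dimmer 1433052_at differed by 0.31 in Htr3a-KO, the other way, and did not pass (adjusted p = 0.0675).

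Elavl4 signal was 10.81, 10.93 and 10.93 on the E18.5 Htr3a-KO arrays and 9.74, 10.46 and 10.32 at P2, again with no overlap and with litter 1 lowest. It fell by 0.72 (SE 0.24) with an adjusted p of 0.0392 in limma. The call was lost in 6 of 14 alternatives, with adjusted p from 0.00123 to 0.179, the last without the P2 array of litter 1 (-0.50). Its other probe sets also fell between E14.5 and E18.5. In controls 1428741_at was 11.16, 11.18 and 11.44 at E14.5 and 10.80, 10.39 and 10.40 at E18.5, and it fell by 0.73 (adjusted p = 0.00538). In Htr3a-KO its fall that passed was that from E18.5 to P2, at -0.62 (adjusted p = 0.00613). In the limma fit of every probe set, 1450258_a_at also passed in that Htr3a-KO step, at -0.47 (adjusted p = 0.0226). The main probe set passed there too (adjusted p = 0.0435). The probe set 1450258_a_at fell from E14.5 to E18.5, with differences of -0.65 in controls (adjusted p = 0.00855) and -0.64 in Htr3a-KO (adjusted p = 0.00748), whereas the main probe set differed by only -0.15 and -0.26 and did not pass. With the mean of the 3 Elavl4 probe sets in place of the main one, the step passed in both genotypes, at -0.51 (adjusted p = 0.00876) and -0.39 (adjusted p = 0.0263). All 3 probe sets thus gave lower signal at P2 than at E14.5, but the age at which the drop appeared depended on the probe set.

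**Figure D4:**
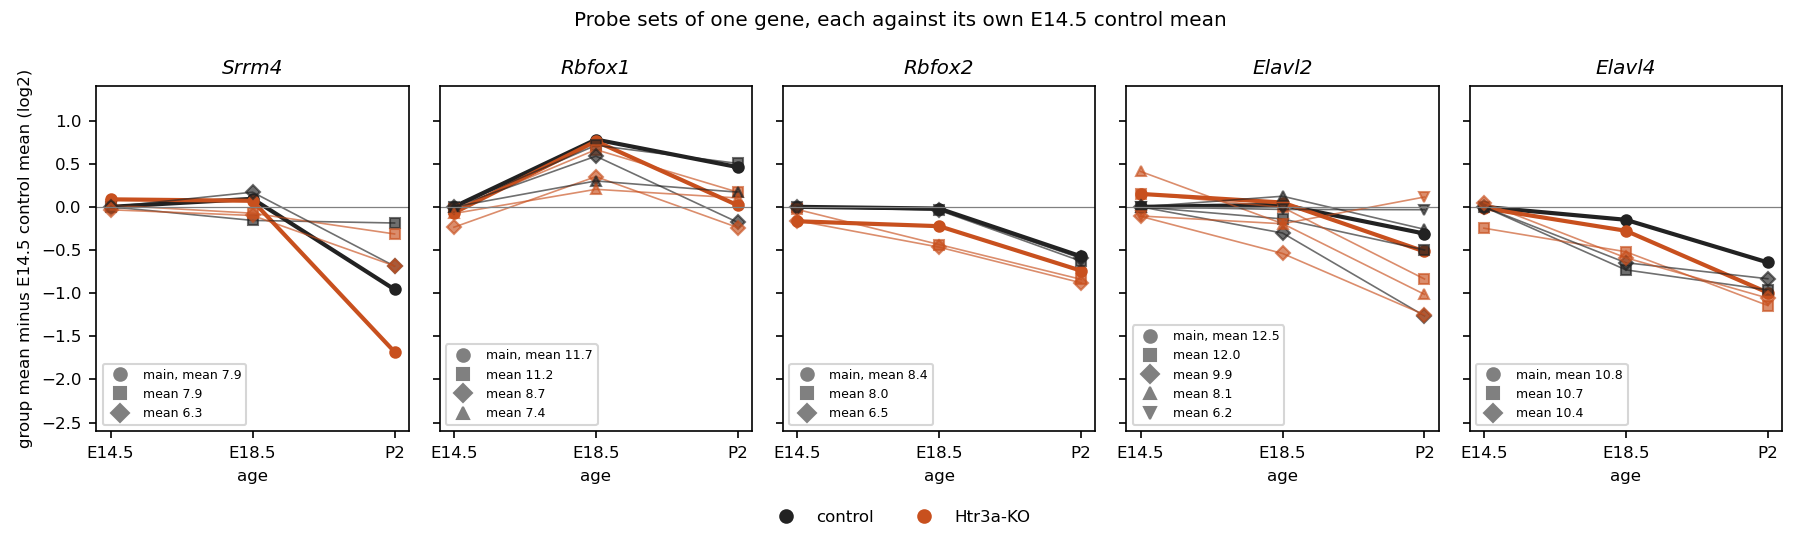
Group means of each probe set above the filter for Srrm4, Rbfox1, Rbfox2, Elavl2 and Elavl4, each as the log2 difference from its own E14.5 control mean; thick lines are the main probe sets, shapes the probe sets (with their mean log2 signal), colours the genotypes. The main Srrm4 probe set and 1 other drop at P2 while the third stays near its starting level, the Rbfox1 probe sets peak together at E18.5, and the Elavl4 probe sets separate at E18.5.

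Counted over probe sets rather than genes, 28 probe sets of the 10 genes were fitted among 26099. From E14.5 to E18.5 in controls 1 passed as higher and 2 as lower, where 2359 of all probe sets passed in either direction. In Htr3a-KO 2 were higher and 1 lower over that step, where 3778 of all passed. From E18.5 to P2, 4 were lower in controls, where 4683 of all passed, and 9 were lower in Htr3a-KO, where 6471 did, with 0 higher in either. The probe sets of 1 gene share their transcript and are not separate tests.

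Loss of Htr3a was compared with control at each age. None of the 10 genes passed at E14.5, E18.5 or P2 or for the mean over ages, in limma, where 0.014%, 0.021%, 0.035% and 0.294% of all genes passed. For the mean over ages, 54.8% of the genes that passed were higher in Htr3a-KO, and 64.9% after quantile normalisation. At an unadjusted p under 0.05 there were 1, 0, 1 and 0 of the 10, namely Nova1 at E14.5 and Srrm4 at P2. For Srrm4 this was the main probe set only. At P2 its other probe sets, 1425774_at and 1438523_x_at, differed by 0.003 and -0.13 in the fit of every probe set and did not pass. The median difference of the 10 was -0.04, -0.02 and -0.14 at the 3 ages, beside 0.01, -0.06 and -0.04 for all genes. Array groups were apart for 0 of 10 at E14.5 and E18.5 and for 2 of 10 at P2, where 9.01%, 20.7% and 9.14% of all genes were apart. The P2 genes were Ptbp1, higher on its main probe set, and Rbfox2, at 8.12, 8.09 and 8.19 in controls against 8.0, 7.86 and 8.04 in Htr3a-KO. The other Ptbp1 probe sets, 1424874_a_at and 1450443_at, differed the other way at P2, by -0.18 and -0.07, and did not pass.

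The interaction of genotype with age passed for 0 of the 10 genes and for 0% of all genes in limma, with 1 of the 10, Nova1, at an unadjusted p under 0.05 (0.0168). Without the E14.5 control array of litter 3 the Nova1 interaction had an adjusted p of 0.00193, the lowest of 25 alternatives, in which the highest was 0.873. At E18.5 the differences of all 10 main probe sets were 0.20 or smaller in size. With SE between 0.12 and 0.27 and 3 arrays a group, differences of that size were not detectable here. Other probe sets gave larger ones. For Rbfox2, 1434938_at and 1418247_s_at differed by -0.40 and -0.43 at E18.5 and did not pass (adjusted p = 0.261 and 0.324 in the fit of every probe set).

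**Figure D5:**
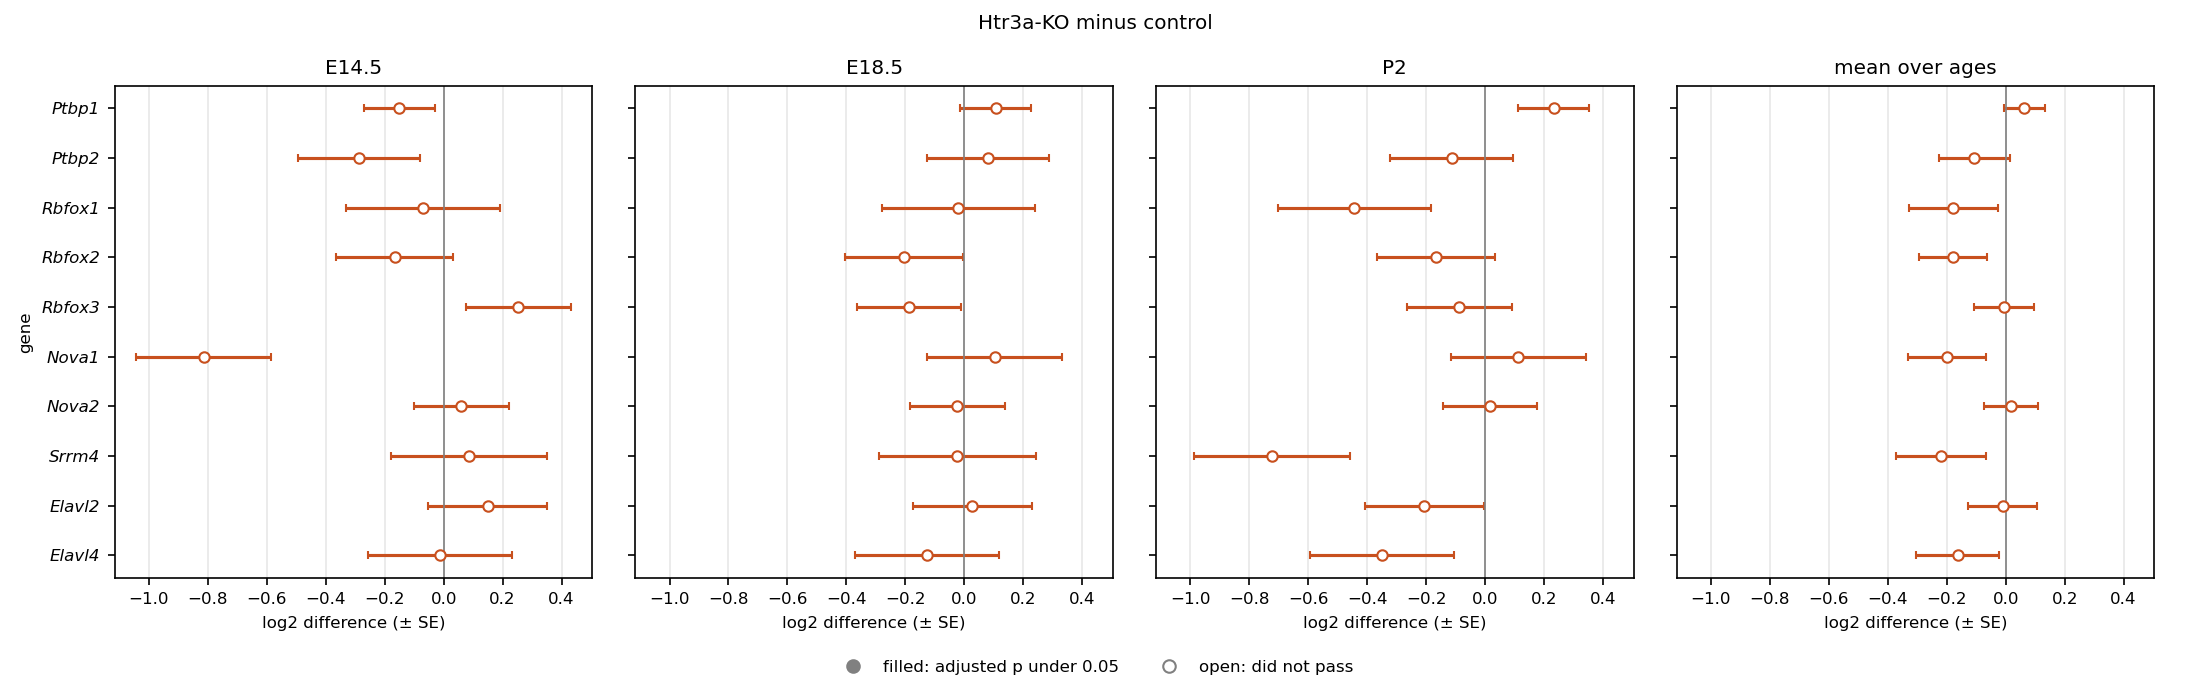
Log2 difference between Htr3a-KO and control with its SE for each gene at E14.5, E18.5 and P2 and for the mean over ages; all points are open because no adjusted p was under 0.05. Points are main probe sets, and those farthest from 0 are Nova1 at E14.5, -0.81, and Srrm4 at P2, -0.72.

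Other tissue-regulated splicing factors, with further PTB, Elavl and Srrm paralogs among them, gave 26 tested genes. In controls 2 rose and 1 fell from E14.5 to E18.5, where 11% of all genes passed. From E18.5 to P2, 2 rose and 5 fell, where 19.7% of all genes passed. The first count was near the share of all genes. Khdrbs3 rose and Rbm24, a factor known for muscle splicing, rose by 0.89 in the first step and fell by 1.30 in the second (adjusted p = 0.0228 and 0.00146 in limma). Rbm4b fell in both steps, with differences of -0.57 and -1.13, and Elavl1, the broadly expressed Elavl paralog HuR, had a difference of -0.80 in the second (adjusted p = 0.00373). Mbnl2 and Celf4, regulators of later splicing transitions, rose in the second, by 0.64 and 0.48. In Htr3a-KO 4 rose and 2 fell in the first step, and 1 rose and 6 fell in the second.

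Genes of general RNA processing were counted in the same way. Of 23 hnRNP genes, the abundant nuclear RNA-binding proteins, 0 passed in the first control step and 5 fell in the second, where 19.7% of all genes passed in either direction, with Hnrnph3 at -0.81, Rbmx at -0.58 and Hnrnpa0 at -0.45 (adjusted p = 7.26e-04, 0.00761 and 0.00795 in limma). In Htr3a-KO 16 of the 23 fell in the second step and 0 rose, where 15% of all genes passed as lower, with a median of -0.37 where that of all genes was 0. Of 28 SR and core splicing genes, 1 fell in the first control step and 4 in the second, a share below that of all genes. Srsf6, an exon-binding SR protein, fell in both, with differences of -0.45 and -0.44, and Rbm39 and Clk2, the latter an SR protein kinase, fell in the second, with -0.41 and -0.29. In Htr3a-KO 2 rose and 1 fell, then 11 fell and 0 rose. These lists, like the 10 genes, thus had median differences below 0 from E18.5 to P2 in both genotypes.

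Of 22 cytoplasmic RNA-binding genes, 0 passed in the first step in either genotype. In the second control step Msi2, a progenitor translation regulator, rose by 0.73 (adjusted p = 0.0172 in limma), while G3bp1, Stau1 and Pcbp1 fell, with differences of -0.64, -0.35 and -0.24. In Htr3a-KO 5 of the 22 fell and 0 rose.

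The circuit of REST and miR-124, which controls Ptbp1 and Srrm4 in neurons, was read from 9 genes. None passed in the first control step in limma. In the second, Rest rose by 0.74 and the phosphatase gene Ctdsp1, a REST partner, by 0.79, while the corepressor gene Rcor2 fell by 1.07 and Dicer1 fell by 0.60 (adjusted p = 0.0384, 0.0418, 0.00115 and 0.0128). As background, REST represses Srrm4, and Srrm4 in turn promotes a splice form of Rest that encodes a weaker repressor. The mean Rest signal was 7.32, 7.02 and 7.75 at the 3 ages in controls and 8.04, 7.30 and 7.60 in Htr3a-KO. In Htr3a-KO Rest fell in the first step, by 0.75 (adjusted p = 0.0438), where Srrm4 differed by -0.02 and did not pass, and its second step of 0.30 did not pass (adjusted p = 0.352). The part of Rest in the Srrm4 values was not tested. The host transcript Mir124-2hg fell by 1.31 in the second step in Htr3a-KO (adjusted p = 0.00478) and differed by -0.59 in controls (adjusted p = 0.18). The mature miRNA was not measured.

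Known splicing or stability targets of these proteins were measured at the level of the whole transcript. Of 10 tested, 3 rose and 1 fell from E14.5 to E18.5 in controls, where 11% of all genes passed. Mapt, the tau gene, whose message HuD stabilises, rose by 0.99, Gabbr1 by 0.70 and Agrn, whose neuronal exons Nova controls, by 0.37, and Unc13b fell by 0.76 (adjusted p = 0.00102, 0.00189, 0.0309 and 0.00494 in limma). From E18.5 to P2, 0 passed in either genotype. Of 9 general neuronal genes, which include Rbfox3 of the 10 genes, 0 passed in the first step in either genotype. In the second, Dcx fell in controls, with a difference of -0.33, and Dcx and Tubb3 fell in Htr3a-KO, with -0.50 and -0.69. In the comparisons of Htr3a-KO with control, 0 genes of the RNA-binding, REST circuit, target and general neuronal lists passed in limma. Of the cell-type markers, Htr3a passed as lower at E18.5, P2 and for the mean over ages, and 1 of 7 endothelial genes as higher for the mean. Median differences for the mean were 0.95 in endothelial, 0.56 in astrocyte, -0.29 in GABAergic and -0.35 in striatal genes, beside -0.03 for all genes. The part of these cell types in the genotype differences was not tested.

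The closest profiles over the 18 arrays were found for the other genes in the same way, with smaller distances for genes that varied less. Ptbp1, with an SD of 0.177 over the 18 arrays, was most like Sar1b, Sema3f and Foxh1, at 0.106 to 0.113 log2 units. Ptbp2 (SD 0.345) was most like Med14, C9orf72 and Csnk1g3, at 0.122 to 0.129. Rbfox2 was most like Lysmd3, Ube2b and Tut4, at 0.161 to 0.174, and Rbfox3 like Sec14l1, Htr5a and Srgap3, at 0.152 to 0.156. Nova1 was most like Tspan9, Zcchc12 and Lypd1, at 0.20 to 0.226 against an SD of 0.396. Nova2 was most like Gsk3b, Enc1 and Akt1, at 0.131 to 0.137, Elavl2 like Jade1, Htatsf1 and Ube2d2a, at 0.126 to 0.138, and Elavl4 like Vangl2, Mapk1ip1l and Prdm15, at 0.161 to 0.162.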

How the data were processed

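Per the series design text, total RNA of the sorted cells was amplified, labelled and hybridised to an Affymetrix mouse genome array. The authors used Partek Genomic Suite 6.6 and RMA, and the deposited values are log2 signals for 18 arrays. They were used as deposited. The deposited table held 45101 probe sets, of which 64 were controls. GEO's platform annotation named 1 gene for 34945, several for 932 and none for 9160. Probe sets whose mean was in the lowest 30% (under 5.256) were left out, and the brightest remaining probe set stood for each gene.

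The fit of all 14288 genes used limma 3.58.1 (R 4.3.3) with a mean per group, 6 groups and 12 residual degrees of freedom. P-values were adjusted by Benjamini-Hochberg over all genes, and the threshold was 0.05. A second fit held every probe set. Arrays carry no counts, so the number of arrays limits the precision. Replicate numbers were not treated as pairs. Correlations of same-numbered deviations, control against Htr3a-KO within an age, were -0.542 to 0.303, with 2 of 9 over 0.1. With so few arrays a group and no comparison across ages, these correlations cannot decide whether same-numbered arrays share more than a number. The code was tested on simulated data.

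The 10 genes and the gene lists were chosen with earlier results of these data known. Beyond the 10 genes, the text names up to 3 genes of each list, cell-type markers aside, past the threshold in each direction with the smallest p in each control age comparison, with their values in Htr3a-KO where given, every gene of those lists past it between genotypes (0 genes), and the 3 genes most like each of the 10. Rest in Htr3a-KO, Mir124-2hg, Slc17a6, Dcx and Tubb3 are given beside the values they touch and were chosen after their values were seen. Alternatives were no filter, a 50% filter, averaged probe sets, every probe set, quantile normalisation, array weights, a replicate block, only the arrays compared, and leaving out each array in turn. Sequences are from RefSeq on GRCm38.p6.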

Additional observations from a re-analysis of the deposited data

How the results depend on the processing

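Over 90 values of the 10 genes and 1480 alternatives, 0 called values changed sign and 25 calls were gained. Calls lost numbered 42, all of them among the 14 alternatives of each called value. Uncalled values changed sign in 93 alternatives. The Srrm4 fall in Htr3a-KO passed in all 14 of its alternatives, and the other 6 calls each lost at least 2.

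Genes past the threshold between genotypes numbered 2, 3, 5 and 42 at E14.5, E18.5, P2 and for the mean over ages. With array weights they were 119, 876, 8 and 321, with every probe set 6, 21, 9 and 69. Averaging probe sets gave 1 at E14.5 and 14 at E18.5, no filter gave 5 at E18.5, quantile normalisation 3 at P2, and only the arrays compared 0 at E14.5 and 0 at P2. Leaving out 1 array gave 0 to 135, 2 to 20, 0 to 21 and 17 to 128. Without the E14.5 control array of litter 3 there were 135 at E14.5 and 128 for the mean. The interaction count was 0, 8 with array weights and 0 to 13 without 1 array.

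In controls 1571 genes passed from E14.5 to E18.5 and 2818 from E18.5 to P2. These were 2359 and 4683 with every probe set, 3166 in the first step with array weights, 1665 in the second with only the arrays compared, and 916 to 1417 and 1823 to 2901 without 1 array. In Htr3a-KO 2163 and 4071 passed, 3778 and 6471 with every probe set, 4794 in the first step with array weights, and 928 to 1982 and 2518 to 3718 without 1 array.

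Of the 10 genes, array weights gave 1 past the threshold between genotypes at E14.5, 2 and 3 in the control steps, and 2 and 8 in the Htr3a-KO steps. Of all 14288 genes tested, array weights gave 119 at E14.5, 3166 and 3358 in the control steps, and 4794 and 5796 in the Htr3a-KO steps. Averaging probe sets gave 1 and 2 in the control steps, where 1543 and 3081 of all genes passed. Only the arrays compared gave 1 in the first, where 1293 of all genes passed. In the second Htr3a-KO step the count of 5 became 3 with no filter, 3 with every probe set and 2 with quantile normalisation. The counts over all genes or probe sets in these settings were 4329, 6471 and 3481. Leaving out 1 array gave 0 to 1 between genotypes at E14.5 and for the mean, 0 at E18.5 and P2, 0 to 1 in both control steps and in the first Htr3a-KO step, 1 to 4 in the second, and 0 to 1 for the interaction. The causes were not tested.

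With a replicate block, 8 genes passed between genotypes at E18.5 and 8 at P2, and of the 10 genes 0 passed in the first Htr3a-KO step and 2 in the second. Of all genes 1885 and 3784 passed in those steps. Whether same-numbered arrays share more than a number is not given by the labels. Values rest on 3 arrays a group, and signal close to background limits the 3 probe sets below the filter.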
